A study of Mus musculus with 4 samples.

Results

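The 10 genes described here write, keep, remove or protect DNA methylation, and they were taken by name from a table of 21957 genes measured by RNA-seq in mouse oocytes. *Dnmt1* and *Uhrf1* belong to maintenance, *Dnmt3a*, *Dnmt3b* and *Dnmt3l* to de novo methylation, *Tet1*, *Tet2* and *Tet3* to the oxidation of methylcytosine, and *Dppa3* and *Zfp57* to the protection of methylation around fertilization. All 10 were found in the table, and each was at 1 FPKM or more in every library.

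In mammals, methyl groups are placed on cytosines of CpG dinucleotides. De novo methylation is laid down in growing oocytes by DNMT3A with its cofactor DNMT3L, and after DNA replication the pattern is copied by DNMT1, which UHRF1 brings to hemimethylated sites. TET enzymes oxidize methylcytosine, and the TET3 stored in the oocyte acts on the paternal genome of the zygote, while DPPA3 (also named STELLA or PGC7) and ZFP57 are known to protect maternal and imprinted methylation. A fully grown oocyte is nearly silent in transcription, so these messages are stored, translated or degraded during maturation.

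The study asked how Tubastatin A (TubA), a small molecule made to inhibit the deacetylase HDAC6, alters the transcripts of oocytes during maturation culture. All oocytes came from female B6D2F1 (C57BL/6 x DBA) mice aged 6 to 8 weeks that had been primed with gonadotropin, and were freed of cumulus cells. The GV library held oocytes at the germinal vesicle stage, collected at 0 h of culture and not treated. The MII library held oocytes cultured for 12 h without TubA, and these were taken only if they had extruded a polar body; its title calls them embryos, but no fertilization is described. The TubA-10 and TubA-20 libraries held oocytes cultured for 12 h with TubA at 10 μM and 20 μM, for which no choice by polar body is described. TubA had been dissolved in DMSO, and a DMSO treatment of the MII oocytes is not described. The titles and the methods disagree with the treatment field, in which TubA-10 is listed at 20 μM and TubA-20 at 11 μM, and the doses in the titles are used here.

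Each condition had 1 library from a pool of 100 oocytes, so differences cannot be weighed against replicate error and no p-value is given. Values are FPKM, fragments scaled by the length of the transcript and the mapped fragments of a library, and can therefore be compared between genes. Changes are log2 of the ratio of FPKM + 1, and a gene is said to have risen or fallen only if this ratio passed 2-fold. In RNA from pools, fewer cells and less RNA per cell cannot be told apart, and since the RNA was selected with oligo(dT), neither can the amount of a message and the length of its poly(A) tail. FPKM are shares of a library, so a loss of RNA common to all genes is not seen in them.

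The estimated depth of MII was 1.61 times that of GV, of TubA-10 1.66 times and of TubA-20 0.896 times. The paper lists more reads for TubA-20 than for GV, so reads and this estimate differ in order there. Fragment numbers and intervals below rest on the estimate. The median log2 ratio of FPKM over 9193 genes, taken against GV, came to 0.14 (MII), 0.16 (TubA-10) and 0.23 (TubA-20), so changes against GV are also given relative to this median gene where it matters. The 8 oocyte markers were all present, the lowest at 197 to 299 FPKM, and summed to 7400 to 9121 FPKM, but TubA-20 stood apart within them. Its median over the 8 was 454 FPKM against 757 to 793 in the other libraries, with *Zp2* at 293 (753 to 778), *Zp3* at 973 (2151 to 2454) and *Padi6* at 350 (776 to 987), while *Gdf9* was at 3822 (1774 to 2928). The 12 markers of cumulus and granulosa cells summed to 20.0 to 25.5 FPKM, with *Foxl2* at 0 in every library, and *Nr5a2* and *Cyp19a1* held most of that sum in each. Single markers moved both ways: *Inha* was at 7.502 FPKM in GV and at 0.239 to 0.314 in the cultured libraries, while *Cyp19a1* was at 6.14 in GV and at 7.42 to 10.3 in the cultured ones. *Ptx3* and *Tnfaip6*, listed at 0 in GV, were at 1.19 and 1.57 FPKM in TubA-20, and the part of such cells in the differences between libraries was not tested. The 7 blood markers summed to 1.64 to 2.26 FPKM, nearly all of it *Cd68*.

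The levels of the 10 genes covered more than 3 orders of magnitude. *Dppa3* ranked 2 in the whole table in GV and both TubA libraries and 3 in MII, and *Tet2* had the lowest FPKM of the 10. In every library the order began with *Dppa3*, *Dnmt1* and *Zfp57* and ended with *Dnmt3b*, *Tet1* and *Tet2*. Between them stood *Uhrf1*, *Dnmt3a*, *Dnmt3l* and *Tet3*, and *Tet3* went from the last of these in GV to the first in TubA-20. *Dnmt3l* and *Dnmt3a* were neighbours in this order in every library, and in MII their counting intervals overlapped (107 to 114 and 106 to 109 FPKM). The estimated fragments behind a value ranged from 242 for *Tet2* in TubA-20 to 153756 for *Dppa3* in TubA-10, which gives counting errors (SE) of 6.43% and 0.255%. Intervals below are 95% Poisson intervals on these estimates. They cover counting error only, since PCR copies without molecular identifiers are not independent molecules.

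**Figure D1:**
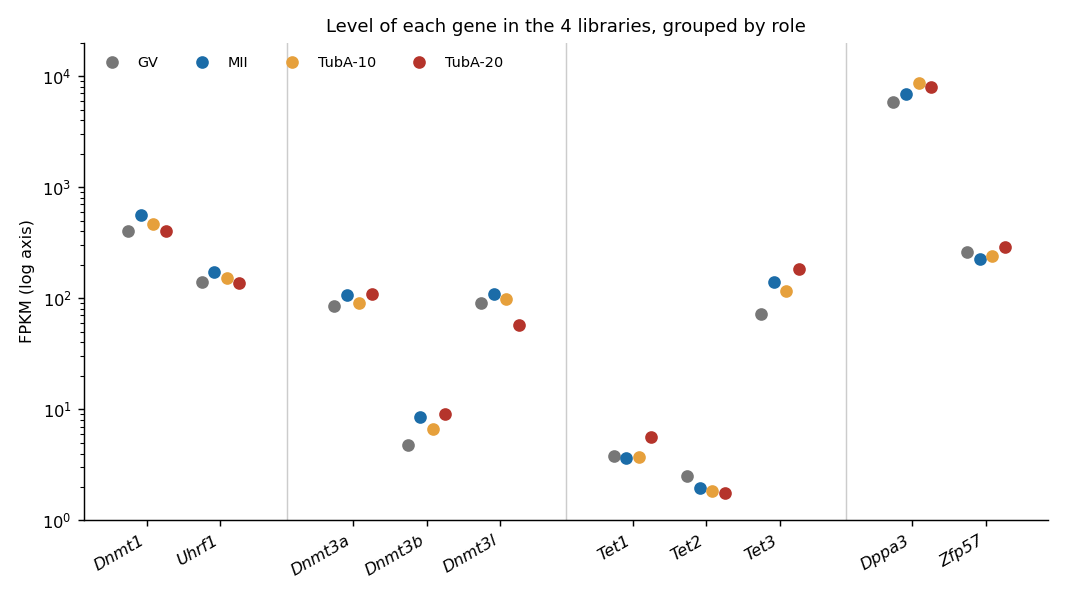
FPKM of each gene (log axis) in the GV, MII, TubA-10 and TubA-20 libraries, with 1 point per library and the genes grouped by role. *Dppa3* lies between 5806 and 8610 FPKM and *Tet2* between 1.77 and 2.52; the 4 points of a gene lie close together beside the distances between genes, with *Tet3*, *Dnmt3l* and *Dnmt3b* the most spread.

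Both maintenance genes were highest in MII and about equal in GV and TubA-20. *Dnmt1* (ENSMUSG00000004099.15, chr9:20907209-20959888, minus strand, GRCm38), which encodes the maintenance methyltransferase, was at 405 FPKM in GV and 560 in MII, against 471 with TubA-10 and 399 with TubA-20. Its log2 change was 0.47 in MII against GV and −0.49 in TubA-20 against MII, neither past 2-fold. In TubA-20 against GV it was −0.02, the counting intervals overlapped (395 to 404 against 401 to 409 FPKM), and the sign turned when the libraries were scaled to equal *Gapdh*. The table gives 1 value per gene, so the oocyte form of the *Dnmt1* message, which starts at its own promoter, is not separated from the somatic form. The same limit holds for all 10 genes, which have from 2 (*Dppa3*) to 18 (*Dnmt3a*) annotated transcripts. Estimated fragments and intervals rest on 1 transcript per gene.

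*Uhrf1* (ENSMUSG00000001228.14, chr17:56303321-56323486, plus strand), whose protein recognizes hemimethylated CpG, followed the same order. It was at 140 FPKM in GV and 173 in MII, against 151 with TubA-10 and 137 with TubA-20. The change was 0.30 in MII against GV and −0.34 in TubA-20 against MII, and in TubA-20 against GV it was −0.03, with a sign that turned under equal *Gapdh*. The ratio of *Dnmt1* to *Uhrf1* within a library was 2.90 in GV and 3.24 in MII, against 3.12 with TubA-10 and 2.92 with TubA-20. The pair therefore kept nearly the same proportion in all 4 libraries.

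Of the de novo genes, *Dnmt3l* stood apart in TubA-20. *Dnmt3l* (ENSMUSG00000000730.13, chr10:78041947-78063622, plus strand) encodes a cofactor without catalytic activity that stimulates DNMT3A and is needed for maternal imprints. It was at 90.8 FPKM in GV and 110 in MII, against 99.3 with TubA-10 and 57.1 with TubA-20, so TubA-20 was the lowest and the other 3 lay close together. The estimated fragments were 1408 in TubA-20 (54.1 to 60.1 FPKM) and 4910 in MII (107 to 114 FPKM). The log2 change in TubA-20 was −0.94 against MII, −0.79 against TubA-10 and −0.66 against GV, none past 2-fold. Of the 10280 genes at 1 FPKM or more in one of both libraries, 6.22% had a lower change against MII. Relative to the median gene the change against MII was −1.02, and it passed 2-fold under each of the 4 scalings of the libraries. Of the 8 oocyte markers, *Zp1*, *Zp2*, *Zp3* and *Padi6* were also lowest in TubA-20. *Gdf9* was highest there, *Bmp15* and *Nlrp5* were lowest in GV, and *Ooep* was lowest in MII. What *Dnmt3l* shares with the markers that were lowest in TubA-20 was not tested.

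*Dnmt3a* (ENSMUSG00000020661.15, chr12:3806007-3914443, plus strand), the de novo methyltransferase of the oocyte, was at 84.4 FPKM in GV and 108 in MII, against 91.2 with TubA-10 and 109 with TubA-20. MII and TubA-20 were alike in level, with overlapping intervals of 106 to 109 and 108 to 111 FPKM. The change of 0.02 between them turned sign under each of the 4 scalings, and against GV it was 0.35 in MII and 0.37 in TubA-20. The ratio of *Dnmt3l* to *Dnmt3a* was 1.02 to 1.09 in GV, MII and TubA-10, and 0.523 in TubA-20. A ratio within a library does not depend on its scaling, so the lower share of *Dnmt3l* in TubA-20 holds under every scaling.

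*Dnmt3b* (ENSMUSG00000027478.15, chr2:153649450-153687730, plus strand), the methyltransferase used mainly after implantation, was low throughout. It was at 4.73 FPKM in GV and 8.49 in MII, against 6.68 with TubA-10 and 9.01 with TubA-20, and the intervals of MII (7.96 to 9.05) and TubA-20 (8.28 to 9.79) overlapped. Its change was 0.73 in MII and 0.80 in TubA-20 against GV, and 0.08 in TubA-20 against MII, where the sign turned under equal upper quartiles, equal FPKM sums and equal *Gapdh*. The GV value rested on an estimated 331 fragments. *Dnmt3a* was 17.8 times *Dnmt3b* in GV, and 12.1 to 13.6 times in the other libraries.

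Among the genes that oxidize methylcytosine, *Tet3* made up nearly all of the message. *Tet3* (ENSMUSG00000034832.15, chr6:83362373-83459084, minus strand), the maternal TET enzyme of the zygote, was at 72.9 FPKM in GV and 141 in MII, against 117 with TubA-10 and 182 with TubA-20. GV was the lowest and TubA-20 the highest, with intervals of 71.6 to 74.1 and 180 to 184 FPKM. *Tet3* rose in TubA-20 against GV, with a ratio of FPKM of 2.499 and a log2 change of 1.31 (1.08 relative to the median gene), and 94.7% of 10760 genes had a lower change. In MII against GV it was 0.95, short of 2-fold but past it under 3 of the 4 scalings, in TubA-10 against GV 0.68, and in TubA-20 against MII 0.36. *Tet3* held 92.1% of the summed FPKM of the 3 *Tet* genes in GV and 95.4% to 96.2% in the cultured libraries, and the sum was 79.2 FPKM in GV and 147 in MII, against 123 with TubA-10 and 189 with TubA-20.

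*Tet1* and *Tet2*, which act in embryonic stem cells and blood cells among others, stood at a few FPKM. *Tet1* (ENSMUSG00000047146.15, chr10:62804570-62908996, minus strand) was at 3.77 FPKM in GV and 3.66 in MII, against 3.76 with TubA-10 and 5.62 with TubA-20. Its intervals overlapped in GV, MII and TubA-10, and TubA-20 (5.31 to 5.95) lay above them, at a log2 change of 0.51 against MII and 0.47 against GV. *Tet2* (ENSMUSG00000040943.12, chr3:133463679-133545139, minus strand) was at 2.52 FPKM in GV and 1.94 in MII, against 1.84 with TubA-10 and 1.77 with TubA-20. The intervals of the 3 cultured libraries overlapped, GV was the highest, and the changes against GV were −0.26, −0.31 and −0.35. The ratio of *Tet1* to *Tet2* was 1.49 in GV and 1.88 in MII, against 2.04 with TubA-10 and 3.17 with TubA-20.

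Both protective genes stayed within 2-fold in every comparison, and *Dppa3* was higher in each cultured library than in GV. *Dppa3* (ENSMUSG00000046323.8, chr6:122626410-122630272, plus strand), which shields the maternal genome from TET3 and keeps UHRF1 out of the oocyte nucleus, was at 5806 FPKM in GV and 6858 in MII, against 8610 with TubA-10 and 7960 with TubA-20. Its share of all FPKM was 0.931% in GV and 1.21% in MII, against 1.46% with TubA-10 and 1.27% with TubA-20. The log2 changes against GV were 0.24, 0.57 and 0.46 in this order of the cultured libraries, and both TubA libraries were above MII, by 0.33 and 0.21. *Zfp57* (ENSMUSG00000036036.15, chr17:37001163-37010635, plus strand), a zinc finger protein that binds methylated imprints, was at 262 FPKM in GV and 225 in MII, against 240 with TubA-10 and 292 with TubA-20. Its change was −0.22 in MII against GV, where the sign turned under equal *Gapdh*, and 0.37 in TubA-20 against MII.

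**Figure D2:**
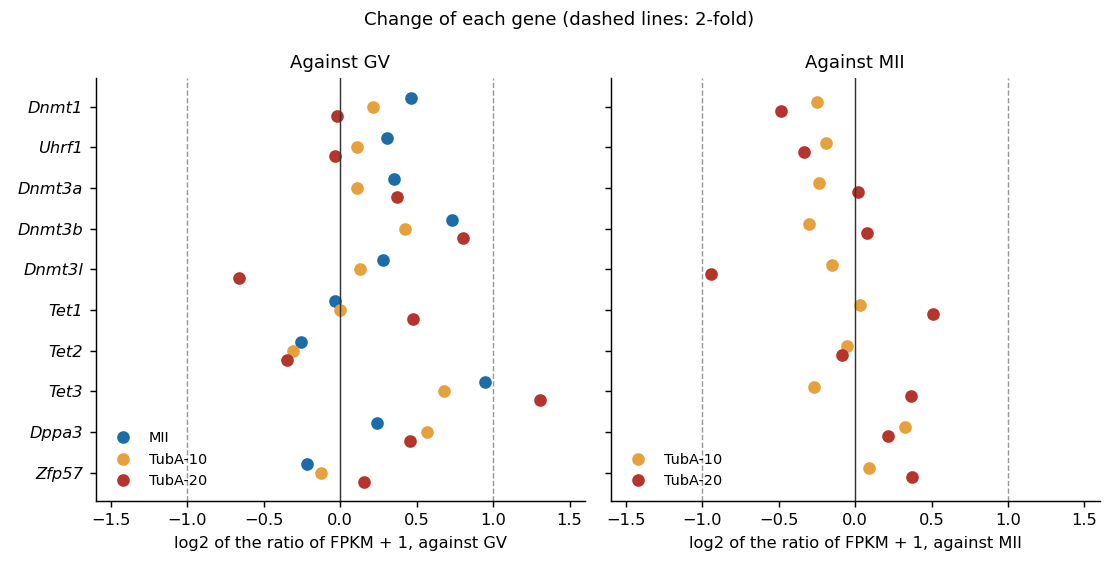
Change of each gene as log2 of the ratio of FPKM + 1, against GV (left; MII, TubA-10 and TubA-20) and against MII (right; TubA-10 and TubA-20), with 2-fold as dashed lines and 1 library per condition. *Tet3* in TubA-20 against GV, at 1.31, lies past the dashed lines, and *Dnmt3l* in TubA-20 against MII, at −0.94, lies just inside.

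Set beside the whole table, 1 of the 10 genes passed 2-fold in 1 of the 6 comparisons. In MII against GV 0 of the 10 did, where 11.4% of all genes did (3.05% higher and 8.34% lower). In TubA-10 against GV it was 0 of the 10, beside 6.34% of all genes (0.742% higher and 5.6% lower). In TubA-20 against GV 1 of the 10 did (*Tet3*, higher), beside 19.3% of all genes (7.61% higher and 11.7% lower). *Tet3* alone makes a share of 10%, beside 7.61% of all genes that were higher. Of the 10760 genes at 1 FPKM or more in one of both libraries, as all 10 were, 1670 were higher. Beside these shares, 1 gene of 10 is not a result about the genes.

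In TubA-10 against MII it was 0 of the 10, beside 0.642% of all genes (0.515% higher and 0.128% lower). In TubA-20 against MII it was 0 of the 10, beside 2.77% (0.328% higher and 2.44% lower), and in TubA-20 against TubA-10 0 of the 10, beside 6.18% (0.66% higher and 5.52% lower). Over the genes at 1 FPKM or more in one of both libraries the shares were 23.5%, 13.1% and 39.4% against GV in the order MII, TubA-10 and TubA-20, 1.37% and 5.91% for TubA-10 and TubA-20 against MII, and 13.1% between the doses. Against these shares a count of 0 among 10 genes is not a result about the genes. The 3 comparisons against GV share the GV library, and the 2 against MII share the MII library, so they are not independent.

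The genes of the 10 that were abundant in GV were set beside all genes at or above the same level. Of the 2156 genes at 50 FPKM or more in GV, 7 belong to the 10, and that level was chosen after the values had been seen. In TubA-20 against GV 55.4% of the 2156 genes passed 2-fold (17.2% higher and 38.2% lower), against 1 of the 7. In MII against GV 38.2% did (5.24% higher and 33% lower), against 0 of the 7. The 2156 genes were chosen by their GV value, which is also the base of both changes, and this can favour falls. Their median log2 change was −0.28 in MII against GV and −0.31 in TubA-20 against GV. Counts of 0 and 1 among 7 genes are therefore not a result about the genes. The median log2 change of the 10 genes was 0.29 in MII against GV, 0.12 in TubA-10 against GV, 0.26 in TubA-20 against GV, −0.17 in TubA-10 against MII, 0.05 in TubA-20 against MII and 0.11 in TubA-20 against TubA-10. The median over genes at 1 FPKM or more was 0.04, 0.08, 0.08, 0.01, 0.01 and 0.04 in the same order.

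**Figure D3:**
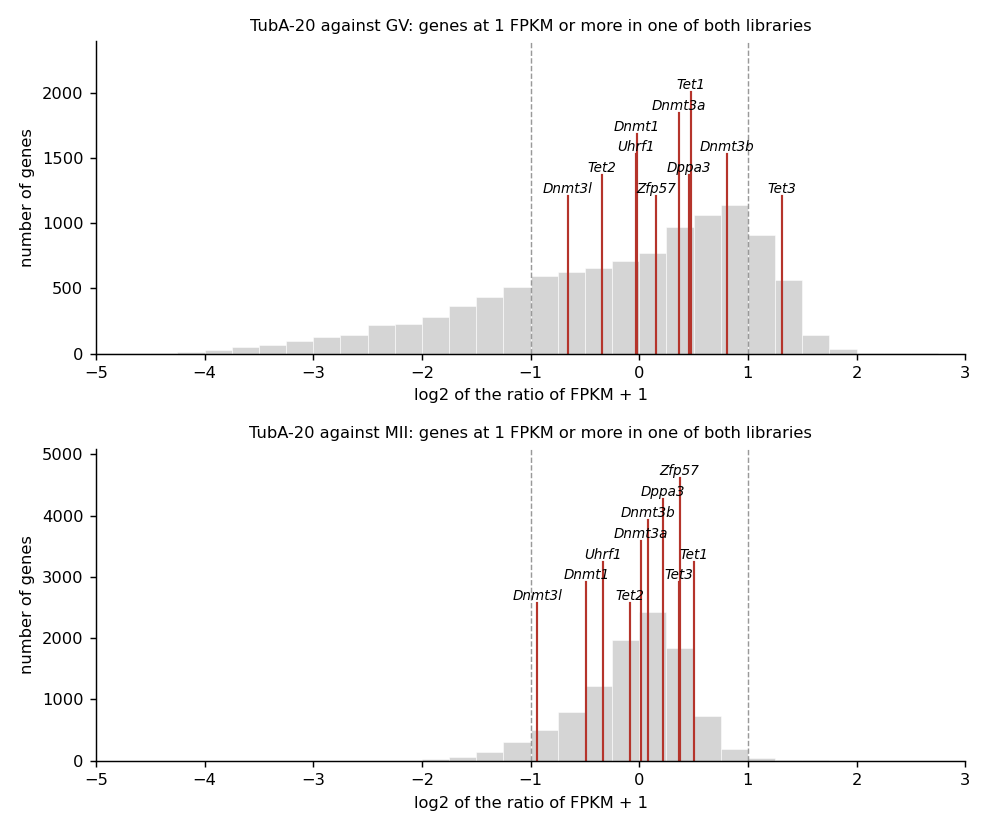
Number of genes by log2 of the ratio of FPKM + 1 in TubA-20 against GV (top) and TubA-20 against MII (bottom), for genes at 1 FPKM or more in one of both libraries, with the 10 genes as red lines and 2-fold as dashed lines. *Tet3* has 94.7% of genes below it in the upper panel, and *Dnmt3l* 6.22% in the lower.

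TubA-10 lay between GV and MII for 8 of the 10 genes, against 66.1% of 9193 genes, and TubA-20 for 0 of the 10, against 20.6%. The same contrast between the doses holds for the whole table, so it is not particular to the 10 genes. The counts depend on the scaling, since TubA-10 lay between for 5 to 8 genes and TubA-20 for 2 to 4 under the 4 scalings. TubA-20 held the highest value of 5 genes (*Dnmt3a*, *Dnmt3b*, *Tet1*, *Tet3* and *Zfp57*) and the lowest of 4 (*Dnmt1*, *Uhrf1*, *Dnmt3l* and *Tet2*), a place that turned under at least one scaling for *Dnmt1*, *Uhrf1*, *Dnmt3a*, *Dnmt3b* and *Zfp57*. Within TubA-20, *Tet3* was 0.456 times *Dnmt1*, compared with 0.180 in GV, 0.252 in MII and 0.249 in TubA-10. It was 3.19 times *Dnmt3l*, compared with 0.803, 1.28 and 1.18. With 1 library per dose, the dose cannot be told apart from the library.

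**Figure D4:**
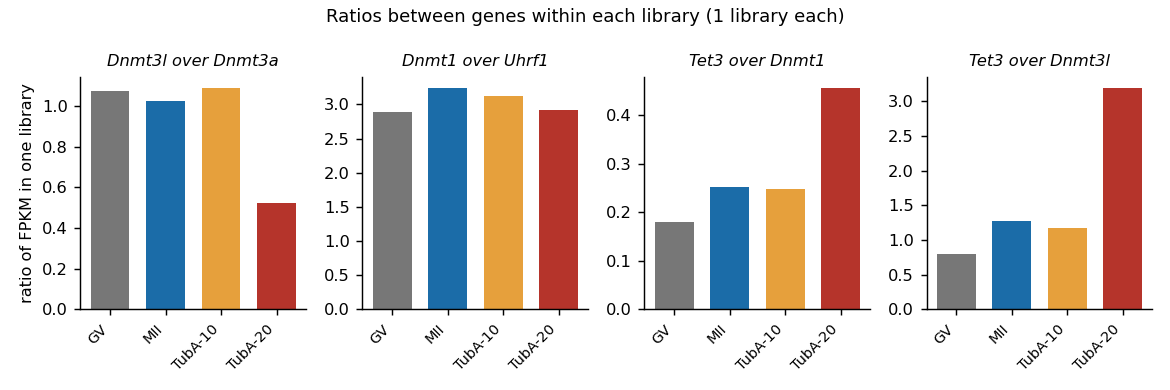
Ratios of FPKM between genes within each library (axes start at 0, bars are 1 library each, no error bars): *Dnmt3l* over *Dnmt3a*, *Dnmt1* over *Uhrf1*, *Tet3* over *Dnmt1* and *Tet3* over *Dnmt3l*. TubA-20 is low for the first (0.523) and high for the last 2 (0.456 and 3.19), while *Dnmt1* over *Uhrf1* stays between 2.90 and 3.24.

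The ends of these messages are shown because the libraries were made from RNA with poly(A) tails. In maturing oocytes a tail can be lengthened through a cytoplasmic polyadenylation element near the polyadenylation signal. The window was the last 150 bases of the 3′ UTR of the principal transcript, and the letters searched on the strand of the transcript were AATAAA and ATTAAA (signals), TTTTAT and TTTTAAT (elements) and TGTANATA. Of 18339 such windows, 66% held AATAAA, 23.1% ATTAAA, 18.5% TTTTAT, 6.72% TTTTAAT, 5.99% TGTANATA and 23.4% at least one of both elements. One of both elements was in the windows of *Dnmt1*, *Dnmt3a*, *Tet1*, *Tet2* and *Tet3*, and in *Tet1*, *Tet2* and *Tet3* it overlapped or adjoined the signal. The window of *Dnmt3l* held none of the 5 motifs, and that of *Zfp57* was only 111 bases. The stretches below show *Tet3*, the gene past 2-fold, with its signal, a maintenance gene and a de novo gene that hold an element, and *Dppa3*, the most abundant gene, 5′ to 3′ on the strand of the transcript, with the motif in capitals, from GENCODE M21 on GRCm38.
Tet3, TTTTAT, chr6:83362466-83362493 (minus): tttgatttgtaTTTTATtataatttaca
Tet3, AATAAA, chr6:83362388-83362415 (minus): gtgggtgttttAATAAAttttatattta
Dnmt1, TTTTAT, chr9:20907240-20907267 (minus): acttgatgtagTTTTATatgttgtaata
Dnmt3a, TTTTAT, chr12:3914378-3914405 (plus): gtttatatataTTTTATtttcgctataa
Dppa3, TGTANATA, chr6:122630117-122630144 (plus): aacctttaaatTGTAGATAggatgcaca
Counted from the first base of the motif, *Tet3* had this TTTTAT 110 bases and AATAAA 32 bases before the end of the transcript, and further matches to TTTTAT and TTTTAAT beside the signal. *Dppa3*, the most abundant of the 10, had AATAAA 2 times and neither element in its window, which says only that these letters are not there. A match is only a match of letters, and the annotated ends may not be the ends used in oocytes.

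Of the related genes, 82 in 6 lists were examined: readers of CpG methylation, imprint protection and chromatin partners, histone marks that guide de novo methylation, base excision and other demethylation factors, control of DNMT1 and UHRF1, and methyl donor supply. In MII against GV 5 of the 82 rose and 6 fell, beside 3.05% and 8.34% of all genes. Of the 10661 genes at 1 FPKM or more in one of both libraries, 669 rose and 1832 fell. Among the 82, 71 were at that level, and the median change of the 82 was 0.09. The balance turned with the scaling, from 3 rising and 8 falling with a median change of 0 to 10 and 3 under equal *Gapdh*. The shares of all genes given here are for values without scaling, so rescaled counts cannot be set beside them. In TubA-20 against GV 13 of the 82 rose and 9 fell (median 0.15), beside 7.61% and 11.7% of all genes. Here too the balance turned, from 6 and 11 to 17 and 8 under the same 2 scalings. Of the 10760 genes at 1 FPKM or more in one of both libraries, 1670 rose and 2569 fell. In TubA-20 against MII 0 of the 82 rose and 1 fell (median 0.05), and 2 to 4 fell under the 4 scalings. Beside the counts without scaling stood 0.328% and 2.44% of all genes, and 72 and 536 of the 10280 genes at 1 FPKM or more. Imprint protection and chromatin partners had the highest median in MII against GV, 0.72 over 15 genes. In this list 3 rose and 0 fell, where 3.05% of all genes rose and 8.34% fell. All 15 were at 1 FPKM or more, and of the 10661 genes at that level 669 rose and 1832 fell. *Hells*, a chromatin remodeler needed for DNA methylation, was at 39.1 FPKM in GV and 109 in MII, against 73.5 with TubA-10 and 91.2 with TubA-20. *Ehmt1*, a histone H3 lysine 9 methyltransferase, was at 28.1, 73.1, 53.2 and 88.1 FPKM, and *Atrx*, which acts with the histone chaperone DAXX, at 140, 336, 232 and 303. In TubA-20 against GV 7 of the 15 rose and 0 fell, with a median of 0.95. Beside them, 7.61% of all genes rose, and 1670 of the 10760 genes at 1 FPKM or more, as all 15 were. Under the 4 scalings 3 to 6 genes rose in MII and 3 to 8 in TubA-20 against GV, and 0 fell. In TubA-10 against GV 0 of the 15 rose and 0 fell, with a median of 0.47, beside 0.742% and 5.6% of all genes. This list was singled out by its median, these comparisons share the GV library, and the scalings reuse the same values. The counts therefore do not back each other. In TubA-20 against MII 0 of the 15 passed 2-fold and the median of 0.10 turned sign under 3 scalings.

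In the other lists, *Setd2*, which trimethylates lysine 36 of histone H3, was at 30.7 FPKM in GV and 62.8 in MII, a rise of 1.01 on the log2 scale that did not pass 2-fold with the median change set to 0. *Mat2b*, a subunit of methionine adenosyltransferase, rose to 1072 FPKM in MII from 520 in GV, a rise that was likewise lost under that scaling, and TubA-20 had 1473. Among the 6 genes that fell in MII against GV were *Mbd3* of the NuRD complex (74.6 to 33.2 FPKM), *Dmap1*, whose protein binds DNMT1 (145 to 38.4), *Polb*, the polymerase of base excision repair (75.5 to 36.9), and *Gnmt* (10.4 to 1.497) and *Ahcyl2* (14.7 to 4.49) of the methyl donor list. *Polb* was no longer past 2-fold under 3 of the scalings, and *Mbd3* under equal *Gapdh*. *Dmap1* was also at 19.0 FPKM in TubA-20, a change of −2.87 against GV. In TubA-20 against MII *Mat1a* fell, from 3.55 to 1.09 FPKM (−1.12), and *Dmap1* was at −0.98, past 2-fold under each of the 4 scalings. *Mbd6* passed 2-fold there under 3 scalings and *Parp1* under 2, and *Mat1a*, *Mbd6* and *Parp1* were picked out after their values had been seen.

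**Figure D5:**
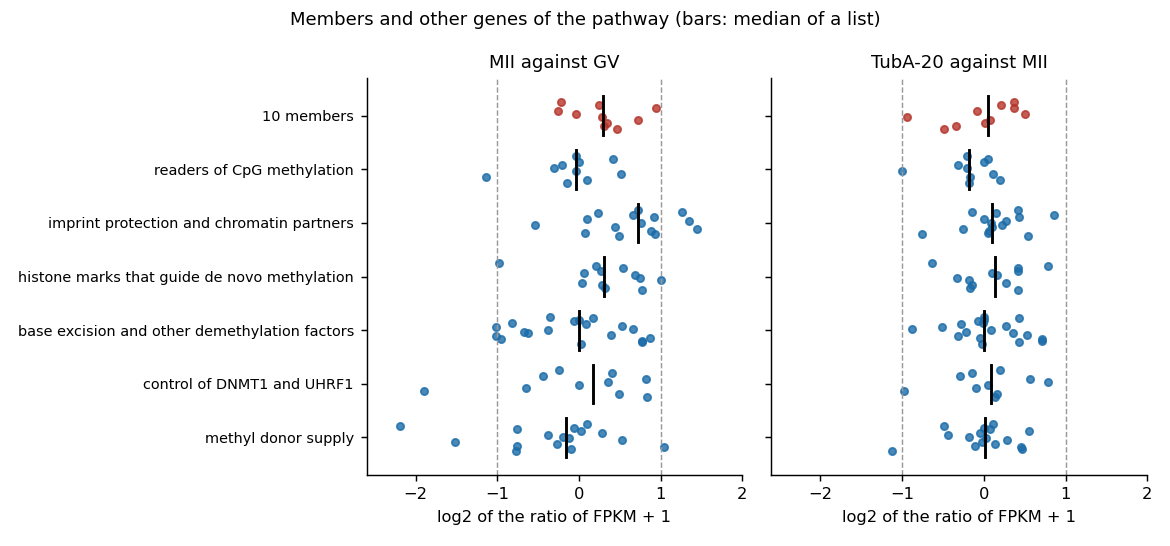
Log2 of the ratio of FPKM + 1 in MII against GV (left) and TubA-20 against MII (right) for the 10 genes (red) and the 6 lists of related genes (blue, 1 point per gene), with the median of each list as a bar and 2-fold as dashed lines. Imprint protection and chromatin partners lie furthest to the right in MII against GV, with a median of 0.72.

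Some values carry a limit of counting. The exons of *Dnmt3a*, *Dnmt3l* and *Tet2* overlap those of *Dnmt3aos*, *Aire* and *Gm42567* on the opposite strand by 133, 67 and 43 bases, and the counting used strand. Pseudogenes of *Dppa3*, *Dnmt3a*, *Dnmt3b* and *Dnmt3l* are listed by RefSeq, so reads may be shared with them and these values are uncertain to that extent.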

How the data were processed

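RNA-seq libraries were made from pools of mouse oocytes, 1 library for each of GV, MII, TubA-10 and TubA-20. Per the labels and the methods of the study, reads were aligned to mm10, with STAR 2.5.0, Cufflinks and Cuffdiff 2.2.1 named in the submitters' processing notes, and a strand-specific library type was set in Cufflinks. The authors deposited 1 table of FPKM values (fragments per kilobase of transcript, divided by the mapped fragments of the library), which was used without further scaling. Entries carry versioned Ensembl identifiers although the methods name UCSC gene models, and labels and methods name different RNA extraction reagents. The table held 21959 entries, of which 21794 were given a symbol. Values under the same symbol were summed, giving 21957 genes.

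Changes were computed as log2((FPKM + 1)/(FPKM + 1)) between 2 libraries, and a gene was called when the ratio passed 2-fold. With 1 library per condition no test was possible, so counts are set beside the share of all genes called. The numbers of fragments were estimated from the FPKM of genes resting on 1 fragment, through the mode of the ratio of low values (0.001 to 0.15 FPKM) between 2 libraries and, for GV, the lower edge of FPKM times transcript length over 229 genes with 1 annotated transcript, after 200 bases had been taken off each length. The intervals are exact Poisson intervals at 95% and cover counting error only. The scripts were tested on simulated data. The 10 genes, the lists of related genes and the tests were chosen with earlier results of these data known. All 10 genes are named. From each list of related genes at most 4 are named, those with the largest changes among genes past 2-fold that reached 5 FPKM in either library, in MII against GV or in TubA-20 against MII. The alternatives used another pseudocount (0.1, 0.01), a floor on FPKM (1, 5), 4 scalings of the libraries, and the highest entry of a symbol. A 1.5-fold threshold and a level of 50 FPKM in GV were chosen after the data had been seen. Transcripts and coordinates were those of GENCODE M21 (GRCm38, the assembly of mm10), and 1 principal transcript with a 3′ UTR was used per gene. Scripts ran in Python 3.11.15 (scipy 1.17.1, pandas 2.3.3, numpy 2.4.6; plots in matplotlib 3.10.9).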

Additional observations from a re-analysis of the deposited data

How the results depend on the processing

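No paired analysis was possible because each condition had 1 library, and for the same reason no replicate could be left out. Of the 60 changes of the 10 genes (6 comparisons), 13 turned sign under at least one of the 9 alternatives chosen at the start, and 2 moved across 2-fold. *Dnmt3l* was past 2-fold in TubA-20 against MII with the median change set to 0, equal upper quartiles, equal FPKM sums and equal *Gapdh*, which makes 1 gene instead of 0, and its change ranged from −1.10 to −0.94. *Tet3* was past 2-fold in MII against GV with equal upper quartiles, equal FPKM sums and equal *Gapdh*, again 1 gene instead of 0, with a range from 0.80 to 1.17. In TubA-20 against GV, *Tet3* was past 2-fold under all 9 of these alternatives (1.08 to 1.38). With the 1.5-fold threshold added later, 2 genes passed in MII against GV, 1 in TubA-10 against GV, 3 in TubA-20 against GV, 1 in TubA-20 against MII, 2 in TubA-20 against TubA-10 and 0 in TubA-10 against MII. The shares of all genes given above are for 2-fold and cannot be set beside these counts. The 1.5-fold counts are therefore not a result about the genes. The cause of the shifts between scalings was not tested.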

Other observations

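Among the 82 related genes, the comparison of both TubA doses gave 4 genes past 2-fold, which were picked out after their values had been seen. *Dpy30*, a subunit of the complexes that methylate lysine 4 of histone H3, was at 548 FPKM in TubA-10 and 1238 in TubA-20 (log2 change 1.18, not past 2-fold under equal *Gapdh*), with 622 in GV and 719 in MII. *Dmap1*, which encodes a DNMT1-associated protein, was at 54.5 FPKM in TubA-10 and 19.0 in TubA-20 (−1.48). *Polb*, the DNA polymerase of base excision repair, was at 53.4 and 25.6 FPKM (−1.03), and *Mat1a*, a methionine adenosyltransferase best known from liver, at 3.94 and 1.09 (−1.24). The set also grew with the scaling. *Ash2l* and *Neil2* were past 2-fold lower under equal upper quartiles, equal FPKM sums and equal *Gapdh*, and *Xrcc1* under equal *Gapdh*. Of all genes, 0.66% were past 2-fold higher and 5.52% past 2-fold lower in TubA-20 than in TubA-10. Of the 10376 genes at 1 FPKM or more in one of both libraries, 145 were higher and 1213 lower.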
